A study of Homo sapiens with 2 samples.

Results

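Transcripts of 9 genes of the actin and tubulin cytoskeleton were followed by the length of their poly(A) tails and by their relative abundance. The genes are the actins ACTB and ACTG1, the tubulins TUBA1B and TUBB, the tubulin-binding STMN1, the actin-binding CFL1, PFN1 and TMSB10, and the myosin light chain MYL6. They were chosen by name, with earlier results of these data known, although no measured value entered the rule. Every deposited poly(A) site inside a hg19 window around each gene was taken where both libraries held it. This gave 13 sites of the 8890 that the libraries share, and all 13 were among the 914 sites with at least 10 reads in each of the 10 subsamples. The site with the most reads in a window is called the leading site of its gene.

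The reads came from direct RNA sequencing of HCT116, a human colon cancer cell line, in which endogenous PABPC1 and PABPC4 both carry an auxin-dependent degron tag. All cells of both libraries share these tags, and each line is polyclonal, with a transgene delivered by the Sleeping Beauty transposon that can be present in several copies. In the PABPC1 library the transgene was PABPC1, and in the PABP1212 library it was PABPC1 with its RRM1 and RRM2 domains duplicated. Cells received 1 μg/mL doxycycline, which induces the transgene, and 0.5 mM IAA (indole-3-acetic acid), which triggers loss of the tagged proteins, for 13 days. They were then sorted by transgene expression into 4 gates of 25% of the cells, called here the lowest, second-lowest, second-highest and highest level. An uninduced subsample of each line received neither agent and was not sorted. There is 1 library per transgene and 1 observation per level, so no value has a replicate. Transgene and library cannot be told apart, and neither can replacement, the 2 agents, sorting and barcodes in a contrast of uninduced with sorted cells.

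Actin and tubulin are the building blocks of microfilaments and microtubules, and their monomer pools are set in part by small binding proteins such as cofilin, profilin, thymosin and stathmin. The mRNAs of these genes are among the abundant housekeeping transcripts of dividing cells. Their poly(A) tails, added in the nucleus after cleavage of the transcript, are bound in the cytoplasm by PABPC proteins and are shortened there by deadenylases.

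The tail is added downstream of a polyadenylation signal, most often the hexamer AATAAA in DNA letters. The last 30 nt of the annotated transcript are given for the 6 genes that hold this hexamer there, to show an annotated end. They come from GENCODE release 29, with 1 principal transcript per gene, the one with the most downstream end. They are written 5′ to 3′ on the transcript strand with the hexamer in capitals.
ACTB: ttgAATAAAagtgcacaccttaaaaatgag
ACTG1: aaggaaaAATAAAagtgctgccgtaaccaa
TUBB: ccaaaAATAAAtgggaattgaaaaaagctg
PFN1: ttttctgAATAAAaaagattctactaacaa
TMSB10: atgaaAATAAAacacacctcgtggcatggc
MYL6: agcattcaccaAATAAActtgctctctggg
Of 19619 annotated genes, 50.6% hold AATAAA in the same window, searched on the transcript strand alone. The letters AATAAA are not in this window for TUBA1B, CFL1 and STMN1, which does not show that their measured sites lack the hexamer. The annotation is on another genome build than the sites, so annotated ends and measured sites were not matched by position.

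On hg19, the leading sites lay on chromosome 7 at 5566779 (minus strand) for ACTB and on chromosome 17 at 79476955 (minus strand) for ACTG1. Those of the tubulin genes lay on chromosome 12 at 49521565 (minus strand) for TUBA1B and on chromosome 6 at 30693199 (plus strand) for TUBB, and that of STMN1 on chromosome 1 at 26227009 (minus strand). The leading site of CFL1 lay on chromosome 11 at 65622255 (minus strand), that of PFN1 on chromosome 17 at 4848908 (minus strand), that of TMSB10 on chromosome 2 at 85133795 (plus strand) and that of MYL6 on chromosome 12 at 56555358 (plus strand). TUBB, CFL1, TMSB10 and MYL6 had a further site each, at 30692355, 65622366, 85133820 and 56555401. No exon or UTR annotation of hg19 was used here. ACTB and ACTG1, TUBA1B and its paralogs, and TUBB and its paralogs have near-identical coding regions and many processed pseudogenes. How the alignment placed such reads is not given in the sources used here, so the assignment between these copies is uncertain.

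Depth ranged from 65862 to 630986 reads per subsample, and the 13 sites took between 2.50% and 3.66% of them. Over the 10 subsamples, leading sites held from 2061 reads (MYL6) to 19108 reads (ACTG1), and ACTG1 was the site with the second-highest number of reads in every subsample. The smallest number behind a value at a leading site was 26 reads, for STMN1 at the lowest PABPC1 level. Sites carry no gene names, so cell line markers and the tagged genes were not checked here. Intervals in brackets are exact 95% intervals (binomial order statistics for a median, Clopper-Pearson for a share, Poisson for an abundance), and they cover counting error only.

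Tails of these transcripts were longest at the lowest level in most cases and shortest at the upper PABP1212 levels. Against uninduced cells, the median tail was longer at 8 of 9 leading sites at the lowest PABPC1 level and at 9 of 9 at the lowest PABP1212 level. The median change at the lowest level was 23 nt with PABPC1 and 25 nt with PABP1212, beside 20 and 25.8 nt over all 914 sites. At the second-highest and the highest PABP1212 level, all 9 leading sites had shorter medians than in uninduced cells, with a median change of -12 nt at the highest level, beside -13.2 nt over all sites. With PABPC1 the corresponding median at the highest level was 3.5 nt longer than in uninduced cells, beside 3 nt over all sites.

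**Figure D1:**
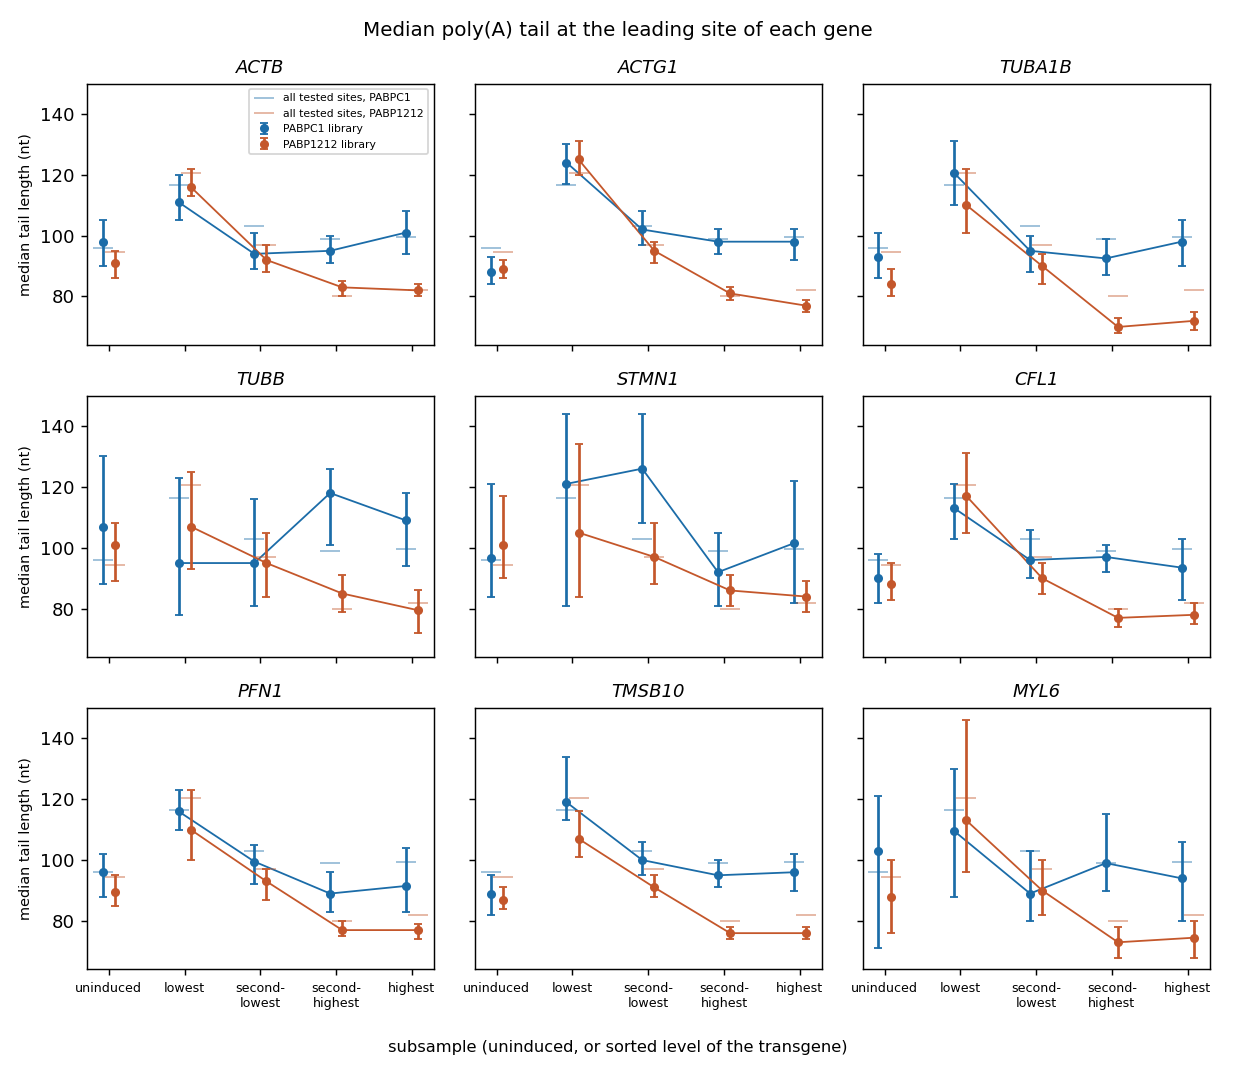
Median poly(A) tail (nt, vertical axis) at the leading site of each of the 9 genes in each subsample (horizontal axis), with exact 95% intervals for counting error; the lines join the 4 sorted levels and the pale dashes mark the median of the 914 tested sites. ACTG1 falls from 125 nt at the lowest to 77 nt at the highest PABP1212 level, whereas the PABPC1 points of TUBB show no such order.

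ACTB, cytoplasmic β-actin, had a median tail of 98 nt (90 to 105) in uninduced cells of the PABPC1 library and, from the lowest level upwards, of 111, 94, 95 and 101 nt. Its medians with PABP1212 were 91 nt (86 to 95) in uninduced cells and 116, 92, 83 and 82 nt at the 4 levels. The intervals of the lowest level (113 to 122 nt) and the highest level (80 to 84 nt) did not overlap in the PABP1212 library, and the upper pair of levels lay below the uninduced value there. In the PABPC1 library the second-highest level lay 3 nt below it and the highest level 3 nt above it.

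ACTG1, cytoplasmic γ-actin, had 88 nt (84 to 93) in uninduced cells of the PABPC1 library and 124, 102, 98 and 98 nt at the 4 levels in rising order. With PABP1212 the values were 89 nt (86 to 92) in uninduced cells and 125, 95, 81 and 77 nt. Its median at the lowest level was above the uninduced one by 36 nt in both libraries, compared with 13 and 25 nt for ACTB. The difference between the actin genes changed sign along the levels: the ACTG1 median lay 13 and 9 nt above that of ACTB at the lowest PABPC1 and PABP1212 level, and 3 and 5 nt below it at the highest level. In uninduced cells ACTG1 lay 10 and 2 nt below ACTB. This contrast within a subsample has no replicate and was not tested.

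TUBA1B, an α-tubulin, had 93 nt (86 to 101) in uninduced cells of the PABPC1 library and 120.5, 95, 92.5 and 98 nt at the 4 levels. With PABP1212 the values were 84 nt (80 to 89) in uninduced cells and 110, 90, 70 and 72 nt. The 70 nt at the second-highest PABP1212 level (68 to 73) was the lowest median among the leading sites in any subsample.

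TUBB, a β-tubulin, had another order of values in the PABPC1 library, with 107 nt (88 to 130) in uninduced cells and 95, 95, 118 and 109 nt at the 4 levels. It was the gene whose median was shorter, by 12 nt, at the lowest PABPC1 level than in uninduced cells. That level rests on 49 reads and its interval, 78 to 123 nt, spans the uninduced median. With PABP1212, TUBB had 101 nt in uninduced cells and 107, 95, 85 and 79.5 nt at the 4 levels, a lower value at each step up.

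STMN1, stathmin, which binds tubulin dimers and promotes microtubule disassembly, had 96.5 nt in uninduced cells of the PABPC1 library and 121, 126, 92 and 101.5 nt at the 4 levels. With PABP1212 it had 101 nt in uninduced cells and 105, 97, 86 and 84 nt. The PABPC1 values rest on 26 to 165 reads, and the intervals at the lowest level (81 to 144 nt) and the highest level (82 to 122 nt) overlap.

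Among the actin-binding genes, CFL1, cofilin, which severs and depolymerizes filaments, had 90 nt in uninduced cells and 113, 96, 97 and 93.5 nt with PABPC1. Its PABP1212 medians were 88 nt in uninduced cells and 117, 90, 77 and 78 nt. The lowest level was the highest of the 5 values in each library, and the PABP1212 intervals of the lowest level (105 to 131 nt) and the highest level (75 to 82 nt) were apart.

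PFN1, profilin, which binds actin monomers and feeds them to growing filament ends, had 96 nt in uninduced cells and 116, 99.5, 89 and 91.5 nt with PABPC1. With PABP1212 it had 89.5 nt in uninduced cells and 110, 93, 77 and 77 nt. TMSB10, a thymosin that sequesters actin monomers, had 89 nt in uninduced cells and 119, 100, 95 and 96 nt with PABPC1. Both genes thus had their longest tails at the lowest PABPC1 level, outside the intervals of the uninduced value (88 to 102 nt for PFN1, 82 to 95 nt for TMSB10).

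In the PABP1212 library TMSB10 had 87 nt in uninduced cells and 107, 91, 76 and 76 nt at the 4 levels. MYL6, the essential light chain of non-muscle and smooth muscle myosin, had 103 nt in uninduced cells and 109.5, 89, 99 and 94 nt with PABPC1, and 88 nt in uninduced cells and 113, 90, 73 and 74.5 nt with PABP1212. The MYL6 values of the PABPC1 library did not follow the order of levels, and its uninduced interval there ran from 71 to 121 nt on 49 reads.

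Trends over the levels were tested with limma on the mean log2(nt + 1) tail per site, weighted by reads, over all 914 sites. A trend is the change in log2 tail length per step between neighbouring levels, and calls are at a Benjamini-Hochberg adjusted p under 0.05. The model has 4 residual degrees of freedom. Its error is the scatter of the levels around a line, in which technical noise has a part. In every limma fit here the error of a site is moderated with that of the other sites. The p-values therefore rest on more than these 4 degrees of freedom. All sites come from the same unreplicated subsamples and can share the deviation of a subsample, so the borrowed precision is not independent.

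With PABP1212, tails shortened with rising level at 5 of the 9 leading sites, beside 15.2% of all sites tested, all of them in this direction. ACTG1 changed by -0.15 ± 0.03 (SE; adjusted p = 0.0019), TUBA1B by -0.13 ± 0.04 (adjusted p = 0.016) and PFN1 by -0.12 ± 0.04 (adjusted p = 0.033). TMSB10 changed by -0.11 ± 0.03 (adjusted p = 0.024) and ACTB by -0.10 ± 0.03 (adjusted p = 0.030). CFL1 (-0.12, adjusted p = 0.057), MYL6 (-0.15, adjusted p = 0.059), TUBB (-0.11, adjusted p = 0.12) and STMN1 (-0.10, adjusted p = 0.18) did not pass. The 5 genes called have the 5 largest read numbers of the 9, and the estimates of the genes called and not called overlap. The median over the leading sites was -0.12, beside -0.14 over all sites, and the slopes of ACTG1 and MYL6 were steeper than that of the median site while the other 7 were less steep. The further site of TMSB10 also shortened (-0.16 ± 0.05, adjusted p = 0.044), and the other 3 further sites did not pass.

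These calls rest on single levels. Without the lowest PABP1212 level none of the 9 was called, beside 11 of all 914 sites. Leaving out the second-lowest PABP1212 level or the highest PABPC1 level, which enters through the shared error, left 1 gene each, ACTG1, beside 13 and 71 of all 914 sites. Without the second-highest or the highest PABP1212 level, 9 and 8 genes were called, beside 490 and 665 of all 914 sites, so the members moved with sites in general. The direction was negative at all 9 leading sites under all 17 alternatives that were run.

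With PABPC1, limma called none of the 9 trends, beside 0% of all sites, with 15 of 914 sites and 1 leading site (ACTG1, -0.10 ± 0.05, unadjusted p = 0.041, adjusted p = 0.995) under an unadjusted p of 0.05. Estimates ran from -0.15 at STMN1 to 0.04 at TUBB. Estimates at 8 of the 9 sites were negative, with a median of -0.09 beside -0.08 over all sites.

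The difference between the 2 trends was not called at any leading site, beside 0% of all sites, with 2 of 914 sites and no leading site under an unadjusted p of 0.05. It was -0.05 ± 0.05 at ACTG1, -0.05 ± 0.06 at ACTB and -0.16 ± 0.11 at TUBB. Standard errors of this size do not show that the trends are alike. Without the highest PABP1212 level, ACTB, ACTG1 and TUBA1B were called steeper with PABP1212, beside 139 of all 914 sites.

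Comparing the average over the 4 levels with uninduced cells, limma called no difference in tail length at any leading site in either library, beside 0% of all sites for each. Under an unadjusted p of 0.05 there were 1 (PABPC1) and 34 (PABP1212) of the 914 sites and none of the 9 leading sites. The median change from uninduced to sorted cells over the leading sites was 0.04 (PABPC1) and -0.10 (PABP1212) on the log2 scale. Since the lowest and the upper levels lie on either side of the uninduced value in the PABP1212 library, this mean joins changes of opposite sign.

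**Figure D2:**
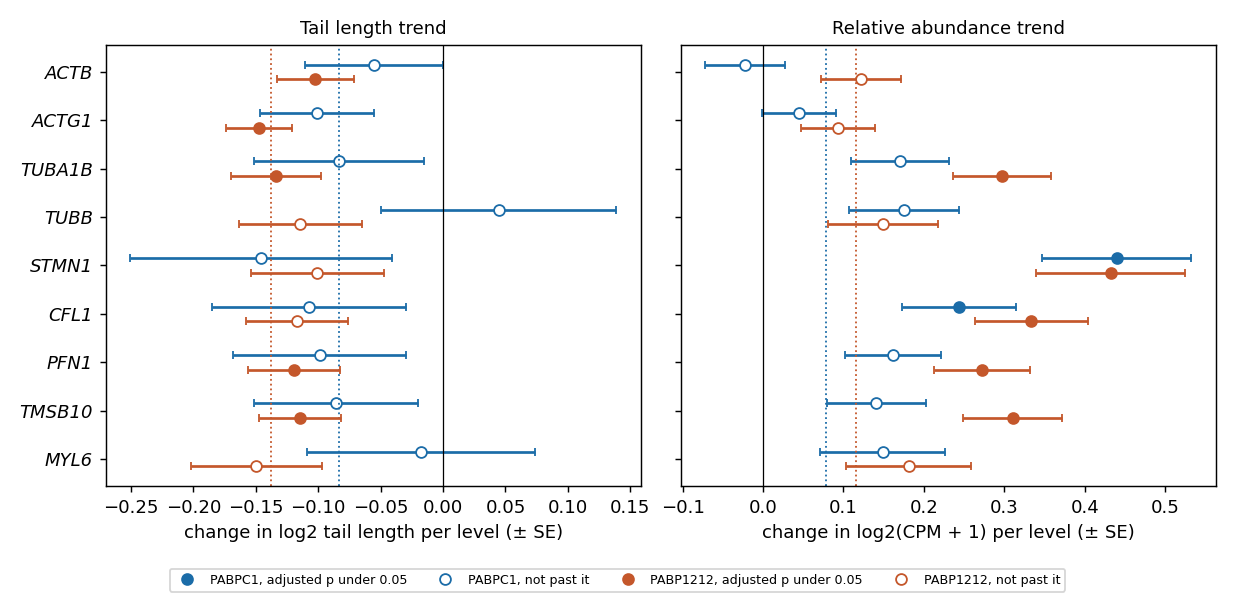
Change per level in log2 tail length (left, horizontal axis) and in log2(CPM + 1) (right, horizontal axis) at the leading site of each gene, with SE bars from limma; filled points have an adjusted p under 0.05 and dotted lines mark the median over all sites tested. Tail trends of PABP1212 lie between -0.15 and -0.10, on both sides of the line for all sites, and the abundance trend of STMN1 lies furthest to the right in both libraries.

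To compare these genes with the other transcripts of the same subsample, the median over the 914 sites was subtracted from each value. The relative trend was then called at 0 of 9 leading sites with PABPC1 (beside 0% of all sites, with 21 of 914 sites and none of the 9 under an unadjusted p of 0.05). With PABP1212 it was also called at 0 of 9, beside 1.09% of all sites. The 1 leading site under an unadjusted p of 0.05 there, beside 119 of 914 sites, was ACTB (0.03 ± 0.01, unadjusted p = 0.047, adjusted p = 0.37). The shortening of the cytoskeletal transcripts along the PABP1212 levels was thus not told apart by this test from that of transcripts in general.

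The level relative to other sites, averaged over all 10 subsamples, was called at 4 of 9 leading sites, beside 30.5% of all sites. Tails of TUBA1B (-0.07 ± 0.02 log2, adjusted p = 0.0036), PFN1 (-0.06 ± 0.02, adjusted p = 0.015) and CFL1 (-0.06 ± 0.02, adjusted p = 0.046) were shorter than those of the median site. STMN1 had longer tails (0.13 ± 0.05, adjusted p = 0.042). These positions depend on the centring: with the read-weighted mean of all sites as the zero, PFN1 and CFL1 moved to 0.0086 and 0.010 and of the 4 calls that of STMN1 alone was kept. The STMN1 call was kept in 7 of 17 alternatives. It was lost without the lowest or the second-lowest PABPC1 level and without the lowest, second-highest or highest PABP1212 level. Processing choices also removed it: leaving out tails of 0 nt or under 10 nt, mean nt with no log, the site median and a minimum of 5 reads. The CFL1 call was kept in 8 of 17.

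The ends of the tail distribution also differed along the levels. Tails of at least 150 nt made up 30.8% to 39.2% of the reads at the 9 leading sites at the lowest PABP1212 level, compared with 8.21% to 22.7% in uninduced cells and 10.2% to 17.2% at the highest level. The median over all 914 sites went the same way, with 17.7% in uninduced cells of that library, 37.9% at the lowest level and 18.1% at the highest, so the difference was not particular to these genes. For ACTG1 this share was 14.2% (11.8 to 16.8) in uninduced cells and 31.9, 19.9, 16.1 and 19.9% at the 4 PABPC1 levels, and 13.0% (11.7 to 14.5) and 37.8, 23.8, 15.7 and 13.6% with PABP1212. The spread was also wider at that level, where the interquartile range of the 9 sites was 81.5 to 120 nt, compared with 57 to 80.5 nt in uninduced cells of that library.

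Short tails, under 30 nt, were rarer. For ACTG1 they made up 3.04% of reads in uninduced cells and 1.27, 2.55, 3.54 and 3.34% at the PABPC1 levels, and 3.41% and 4.15, 7.29, 8.67 and 8.49% with PABP1212. For TUBA1B they made up 3.16% in uninduced cells and 3.70, 3.46, 4.89 and 5.49% with PABPC1, and 6.17% and 6.23, 8.81, 14.4 and 12% with PABP1212. In both genes the upper PABP1212 levels had the largest shares. TUBB ran the other way with PABPC1, with 10.2% (3.40 to 22.2) at the lowest level and 5.56% (2.07 to 11.7) at the highest, on intervals that overlap.

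The trend in the share of short tails, tested with limma on log2 odds, was called at 0 of the 9 leading sites with PABPC1 (beside 0.109% of all sites, with 4 leading sites and 95 of 914 sites under an unadjusted p of 0.05). It was called at 0 of 9 with PABP1212, beside 3.5% of all sites, with 3 leading sites (ACTG1, TUBA1B and TUBB) and 166 of 914 sites under an unadjusted p of 0.05. The estimates of all 9 were positive with PABP1212. The further site of TMSB10 passed (0.68 ± 0.17 log2 odds per level, adjusted p = 0.040), and its share of short tails there was 3.37, 3.50, 6.16 and 10.7% in rising order of the levels.

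**Figure D3:**
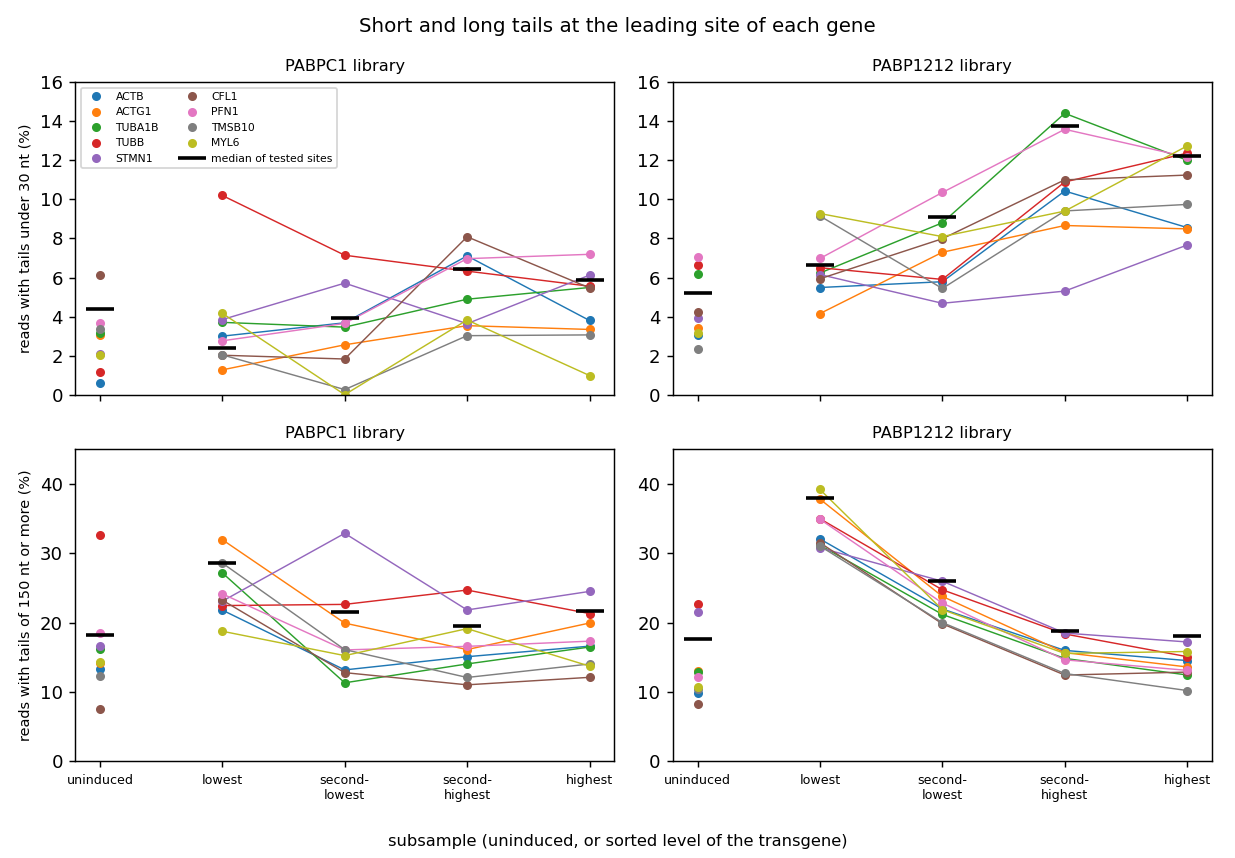
Percentage of reads with tails under 30 nt (top row, vertical axis) and of at least 150 nt (bottom row, vertical axis) at the leading site of each gene in each subsample (horizontal axis), with the PABPC1 library on the left and the PABP1212 library on the right; black dashes mark the median of the 914 tested sites. Long tails make up 30.8% or more at the lowest PABP1212 level and 17.2% or less at the highest.

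TUBB, CFL1, MYL6 and TMSB10 had tandem sites. The distance between the sites was 844 nt in TUBB, 111 nt in CFL1, 43 nt in MYL6 and 25 nt in TMSB10. The downstream site of TUBB took 61.4% to 72.4% of the reads of both its sites over the 10 subsamples, and that of CFL1 took 80.5% to 89.0%. The downstream site of MYL6 took 30.7% to 41.5% and that of TMSB10 took 14.8% to 21.0%. The site that held more reads was thus the same in all 10 subsamples for each gene.

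Tail lengths of tandem sites were compared within a subsample, as counts with no test. In TUBB the downstream site had the shorter median in 8 of 10 subsamples, and it was 28 nt shorter at the lowest PABPC1 level (95 against 123 nt, on 49 and 27 reads). The upstream TUBB site had 109.5 nt in uninduced cells and 123, 121, 100 and 113.5 nt at the PABPC1 levels. Its median was thus not low at the lowest level, but the intervals of the 2 sites there overlap (82 to 147 nt upstream, 78 to 123 nt downstream). In CFL1 the downstream site had the shorter median in 7 of 10 subsamples and in MYL6 in 6 of 10. TMSB10 had the longer median at the downstream site in 6 of 10.

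Relative abundance was counted from the reads at each site and is given as normalised CPM, the reads per 1e6 reads of the subsample after scaling by the median ratio over sites. It is a share of the RNA of a subsample, so fewer cells carrying a transcript and less of it per cell cannot be told apart. Trends and differences were tested with limma on log2(CPM + 1) over 801 sites with a mean of at least 50 reads.

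Among these genes STMN1 rose most along the levels, while the actin genes did not pass the test. STMN1 had 756 CPM (558 to 1003) in uninduced cells of the PABPC1 library and 371, 691, 854 and 957 CPM at the 4 levels in rising order, a 2.58-fold difference between the outer levels. With PABP1212 it had 794 CPM (673 to 930) and 416, 750, 985 and 1033 CPM, 2.48-fold between the outer levels. In both libraries the values stood in the order of the levels, with the uninduced value between the lowest and the highest.

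With PABPC1, 2 of 9 leading sites rose, beside 9.99% of all sites: STMN1 by 0.44 ± 0.09 log2 per level (adjusted p = 0.013) and CFL1 by 0.24 ± 0.07 (adjusted p = 0.038). With PABP1212, 5 of 9 rose, beside 19% of all sites. These were STMN1 (0.43 ± 0.09, adjusted p = 0.0092), CFL1 (0.33 ± 0.07, adjusted p = 0.0092), TMSB10 (0.31 ± 0.06, adjusted p = 0.0078), TUBA1B (0.30 ± 0.06, adjusted p = 0.0078) and PFN1 (0.27 ± 0.06, adjusted p = 0.0096). The further sites of CFL1 (0.42 ± 0.10, adjusted p = 0.013) and TMSB10 (0.23 ± 0.08, adjusted p = 0.044) rose as well. No leading site was called lower at higher levels. The median trend of the leading sites was 0.16 with PABPC1 and 0.27 with PABP1212, beside 0.08 and 0.12 over all sites. This fit used no weights for read numbers, so a gene has the same SE in both libraries although PABPC1 reads were fewer. The PABPC1 error can thus be understated. With precision weights (voom), 0 of the 9 were called with PABPC1, beside 26 of 801 sites in either direction. The 5 PABP1212 calls were kept.

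These trends rest on the lowest level. Without the lowest PABP1212 level none of the 9 was called with PABP1212, beside 1 of all 801 sites, and without the lowest PABPC1 level none was called with PABPC1, beside 6 of all sites. With PABPC1, none was called without its second-highest level (14 of all sites) and 1, STMN1, without its highest level (17 of all sites). It was 6 without the second-lowest PABPC1 level (225 of all sites) and 4 without the lowest PABP1212 level (132 of all sites). The PABP1212 trends at a mean of at least 10 reads instead of 50 gave 0 calls of 9, beside 8 of 4277 sites.

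**Figure D4:**
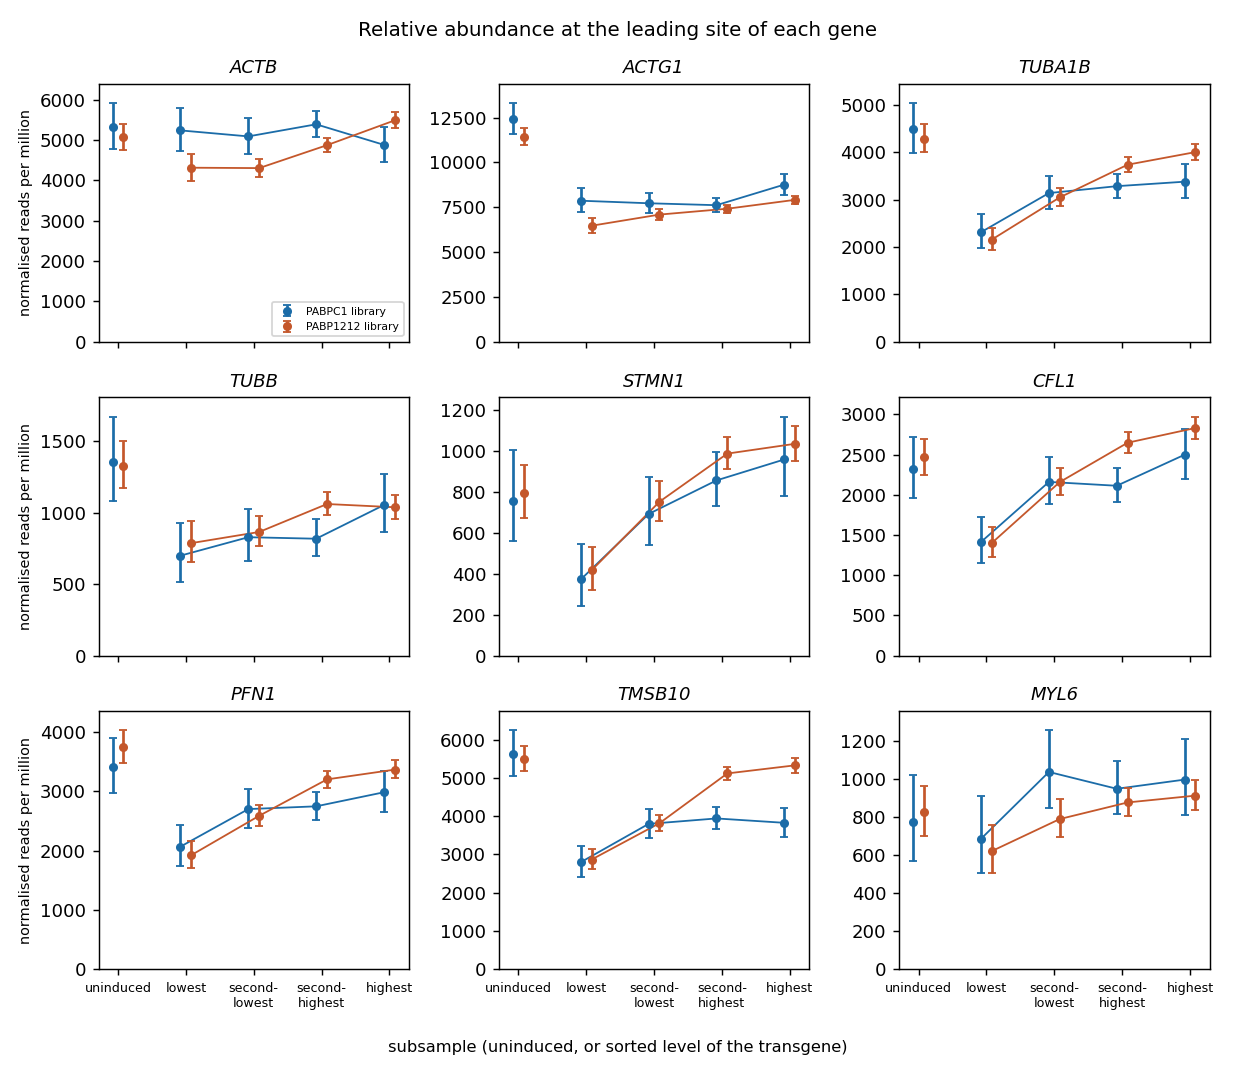
Normalised CPM (vertical axis, from 0) at the leading site of each gene in each subsample (horizontal axis), with exact Poisson 95% intervals for counting error; lines join the 4 sorted levels of a library. ACTG1 drops from 11422 or more in uninduced cells to 8766 or less at every sorted level, whereas ACTB stays between 4305 and 5490.

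CFL1 had 2316 CPM in uninduced cells and 1413, 2161, 2113 and 2499 CPM with PABPC1, and 2465 CPM and 1402, 2159, 2648 and 2832 CPM with PABP1212. TUBA1B had 4491 CPM in uninduced cells and 2313, 3137, 3283 and 3378 CPM with PABPC1, and 4287 CPM and 2157, 3047, 3736 and 4002 CPM with PABP1212. In both genes the lowest level had the smallest value of its library, and the 2 libraries had similar values up to the second-lowest level. At the highest level the value of CFL1 was above its uninduced value in both libraries and that of TUBA1B below it.

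PFN1 had 3419 CPM in uninduced cells and 2070, 2703, 2750 and 2987 CPM with PABPC1, and 3747 CPM and 1927, 2590, 3204 and 3369 CPM with PABP1212. TMSB10 had 5625 CPM in uninduced cells and 2798, 3798, 3941 and 3827 CPM with PABPC1, and 5501 CPM and 2868, 3816, 5116 and 5328 CPM with PABP1212. All 8 sorted values of each gene lay below the uninduced value of their library.

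ACTG1 was lower in sorted than in uninduced cells in both libraries. It had 12432 CPM (11580 to 13330) in uninduced cells of the PABPC1 library and 7866, 7725, 7617 and 8766 CPM at the 4 levels. With PABP1212 it had 11422 CPM (10950 to 11910) in uninduced cells and 6472, 7093, 7420 and 7917 CPM. No sorted value reached the uninduced range. The fitted change was -0.64 ± 0.11 log2 (adjusted p = 0.0017) with PABPC1 and -0.66 ± 0.11 (adjusted p = 0.0040) with PABP1212, and both calls were kept in all 14 alternatives. Its trend over the levels was 0.04 ± 0.05 and 0.09 ± 0.05 log2 per level and did not pass.

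ACTB did not pass the same test in either library. It had 5326 CPM in uninduced cells and 5239, 5091, 5391 and 4881 CPM with PABPC1, and 5070 CPM and 4315, 4305, 4873 and 5490 CPM with PABP1212. Its change from uninduced to sorted cells was -0.05 ± 0.12 log2 (adjusted p = 0.80) with PABPC1 and -0.10 ± 0.12 (adjusted p = 0.63) with PABP1212. The ratio of ACTG1 to ACTB reads, which needs no scaling between subsamples, was 2.25 and 2.33 in the 2 uninduced subsamples and 1.41 to 1.80 in the 8 sorted ones, with no overlap. The ratio itself was not tested.

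In all, 4 of 9 leading sites were lower in sorted cells of the PABPC1 library, beside 15.2% of all sites. Besides ACTG1 these were TUBB (-0.69 ± 0.17, adjusted p = 0.011), TMSB10 (-0.66 ± 0.15, adjusted p = 0.0078) and TUBA1B (-0.58 ± 0.15, adjusted p = 0.014), and all 4 calls were kept in the 14 alternatives. TUBB had 1355 CPM in uninduced cells and 700, 829, 818 and 1054 CPM with PABPC1, and 1329 CPM and 787, 865, 1061 and 1038 CPM with PABP1212. Its sorted values lay below the uninduced value in both libraries.

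In the PABP1212 library 1 of 9, ACTG1, was lower in sorted cells, beside 10.5% of all sites. PFN1 (-0.47 ± 0.15, adjusted p = 0.051), TUBB (-0.51 ± 0.17, adjusted p = 0.059), TUBA1B (-0.45 ± 0.15, adjusted p = 0.068) and TMSB10 (-0.40 ± 0.15, adjusted p = 0.088) did not pass. The further site of TUBB did (-0.93 ± 0.21, adjusted p = 0.016). The count of 1, beside 100 of all 801 sites in either direction, became 4 without the lowest PABPC1 level (201 of all sites) and 3 without the second-lowest (153). It became 3 without the second-highest PABP1212 level (108 of all sites) and 5 without the highest (159). Whether the change differed between libraries was not tested.

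MYL6 was the leading site with a positive change in the PABPC1 library (0.23 ± 0.19, adjusted p = 0.40), with 772 CPM in uninduced cells and 685, 1036, 948 and 996 CPM at the 4 levels. With PABP1212 it had 825 CPM and 621, 789, 876 and 912 CPM, and its change was -0.06 ± 0.19 (adjusted p = 0.85). Its intervals in uninduced and sorted cells overlap in both libraries.

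Changes from uninduced to sorted cells depend on the scaling in their zero point. With median-ratio scaling the median over all 801 sites was -0.15 (PABPC1) and -0.21 (PABP1212) log2, and with scaling by total reads it was -0.05 and -0.04. The leading sites had medians of -0.39 and -0.40 in the first case and of -0.29 and -0.23 in the second, below that of all sites each time. The counts of genes called, 4 and 1, were the same under both.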

How the data were processed

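Per the file headers, the deposited tables give each read its subsample, its poly(A) site and the authors' tail length, in nt. Tools listed in the submitters' processing notes are minimap2 and Bowtie2, without versions, and the build listed is hg38, although site positions follow hg19. The basecaller and tail caller were not given in the sources used here. The authors merged 3 barcodes per sorted level. Reads whose subsample name is absent from the barcode table entered no comparison.

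Members and lists were chosen with earlier results of these data known, and the rule was to name each of the 9 genes by its leading site. Other cytoskeletal genes were not analysed here because no hg19 annotation was at hand.

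Each limma 3.58.1 fit (R 4.3.3) had terms for library and, in each library, for sorted against uninduced cells and for the centred rank of the level. Tails of 0 nt were kept. Short-tail log2 odds were weighted by reads. Abundance, counted here from the reads, was scaled over 5662 sites and fitted with a variance trend. Tables were made with Python 3.11.15, pandas 2.3.3 and SciPy 1.17.1.

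The fits were tested on simulated data with 200 sites changed. For a tail trend of -0.2 log2 per level over 914 sites, 85.5% (PABP1212) and 47.5% (PABPC1) were recovered, beside 5 calls at unchanged sites in each. This trend is steeper than any tail trend given above for a leading site. The simulated noise was independent between sites, with no scatter shared by the sites of a subsample. The recovered shares therefore do not give the power at the leading sites. For abundance trends of 0.5 log2 per level, 98.9% (PABP1212, 799 sites) and 96.9% (PABPC1, 813 sites) were recovered, beside 4 and 40 calls at unchanged sites. With no abundance trend simulated, the PABPC1 fit called 9 sites outside the set of 200 and 0.524% of those tested within it. The PABP1212 fit called 0 in both. Alternatives covered 0-nt tails, the log and weights, read minimums, centring, scaling, pooled sites and leaving out each level.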

Additional observations from a re-analysis of the deposited data

Results flagged for a closer look

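Reads whose subsample name is absent from the barcode table also fell on the 13 sites. There were 479 such reads in the PABPC1 library (3.05% of its 15723 unlisted reads) and 2997 in the PABP1212 library (2.69% of 111259). The limits that a count of 0 allows are 0.0191% and 0.00270%, which sites this abundant exceed in any case. The shares of these reads at the 13 sites lie within the 2.50% to 3.66% of the listed subsamples. These reads are given here because they enter no comparison. Their median tails were 91 nt (PABPC1 library) and 78 nt (PABP1212 library). In the PABPC1 library 121 of them were at ACTG1, with a median of 100 nt, and 91 at ACTB, with 86 nt. In the PABP1212 library 570 were at ACTG1, with 104 nt, and 555 at ACTB, with 66 nt. Both ACTB medians lay below every listed ACTB median of their library, the lowest being 94 nt (PABPC1) and 82 nt (PABP1212). The ACTG1 medians lay within the listed range of their library. In both libraries the ratio of ACTG1 to ACTB reads was below 1.41, the lowest of a listed subsample. Their condition is not given in the sources used here.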

How the results depend on the processing

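Numbers of leading sites called, of 9, are given here. Where a bracket gives a number of all sites, it counts calls in either direction. No paired analysis was possible because the labels give no replicate numbers and each transgene has 1 library. The tail trend with PABP1212 (5) became 9 without tails of 0 nt (433 of 908 sites in all), without tails under 10 nt (427 of 906) and on mean nt with no log (407 of 914). It became 8 on the site median (276 of 914), 0 with no weights (231 of 914) and 2 at a minimum of 5 reads (135 of 1943), and it ranged from 0 to 9 when 1 level was left out. The difference between the tail trends (0) ranged from 0 to 3 in that way. The relative tail level (4, beside 279 of 914) became 1 with no weights (390 of 914) and 2 at a minimum of 20 reads (189 of 410). With no weights the number of leading sites called thus fell while that of all sites rose. It ranged from 2 to 4 when 1 level was left out. The value of 2 came without the second-lowest PABPC1 level (250 of 914) and without the lowest PABP1212 level (257 of 914). Where a call was involved, its sign turned with the read-weighted mean as centre at ACTB (0.056), CFL1 (0.010), PFN1 (0.0086) and TMSB10 (0.048), and at ACTG1 (-3.11 nt) on mean nt with no log. The trend in short tails with PABP1212 (0) became 2 with short defined as under 50 nt (103 of 914) and 3 without tails of 0 nt (96 of 908). It ranged from 0 to 3, with 3 without the highest PABP1212 level (71 of 914). The trend in short tails with PABPC1 (0) became 1 without tails of 0 nt (14 of 908). The abundance trend with PABPC1 (2) became 1 at a mean of 10 reads (91 of 4277), with no filter (94 of 5662) and with the sites of a gene pooled (102 of 797). It became 0 with voom weights (26 of 801) and ranged from 0 to 6. The abundance trend with PABP1212 (5) became 0 at a mean of 10 reads (8 of 4277) and ranged from 0 to 6. The abundance change with PABP1212 (1) became 5 with voom weights (168 of 801) and 2 with pooled sites (100 of 797), and ranged from 1 to 5. The cause of these shifts was not tested. Of 217 counts compared, 178 stayed within 1.5 times of the value reported. A count of 0 under both settings is included as unchanged, so this total does not measure how stable the counts above 0 were. Of 1953 single-gene values 1809 kept their side of the threshold with no reversal of a call, including 105 uncalled values of the other sign. Among the rest, 65 lost a call and 74 gained one with the sign kept, and 5 turned sign. Values uncalled under both settings are included in the 1809, so that total does not measure how stable the calls were. Depth limits most the PABPC1 values of STMN1, MYL6 and TUBB.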
